A study of Rattus norvegicus with 115 samples.

Results

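The MHC class II genes of the rat and their activator were followed in implanted brain tumours and in the opposite hemisphere after irradiation. The members were the class II chain genes RT1-Da, RT1-Db1, RT1-Ba and RT1-Bb, the invariant chain gene Cd74, and Ciita, taken as the probe sets annotated to exactly 1 of these symbols. This gave 6 of the 14217 genes measured, and 12 of the 20826 probe sets with 1 symbol. RT1-Ba had 4 probe sets, RT1-Db1, RT1-Bb and Ciita had 2 each, and RT1-Da and Cd74 had 1 each.

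Fisher rats received 100000 9L cells, a rat cell line that the labels call glioblastoma, in the right caudate nucleus, and irradiation followed 10 days later. The MRT rats received microbeam radiation, an array of narrow X-ray beams, at 90 keV, with a microbeam dose of 400 Gy and a valley dose, between beams, of 18 Gy. The BB rats received a broad beam at a single dose slightly under the MRT valley dose, and the untreated rats carried the same implanted cells without irradiation. Tissue was taken 6 h, 48 h, 8 d and 15 d after irradiation from the tumour and from the contralateral hemisphere, which the labels call normal brain. At these times the tumour groups held 9, 8, 7 and 4 MRT arrays, 6, 4, 4 and 4 BB arrays, and, up to 8 d, 5, 4 and 4 untreated arrays. The contralateral groups held 9, 7, 6 and 4 MRT arrays, 6, 3, 4 and 4 BB arrays, and, up to 8 d, 5, 4 and 4 untreated arrays. Each array was 1 sample of 1 rat, and 55 of the 60 rats gave both tissues. No untreated array at 15 d was analysed here, so 15 d was compared with 8 d or between treatments. The 35 BB arrays carry a label set of their own, so BB and that set of arrays cannot be told apart within a tissue.

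Class II molecules are pairs of an alpha and a beta chain that show peptides from engulfed protein to CD4 T cells. Dendritic cells, B cells, macrophages and, when activated, microglia carry them, while neurons normally do not. The invariant chain fills the binding groove of a new class II molecule until peptides are loaded, and Ciita is the coactivator that binds no DNA itself but joins the factors on the X and Y boxes of class II promoters, often in response to interferon gamma.

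Of the 6 genes, 5 have a promoter in the RefSeq table of build GRCr8. Sequences are shown only for the genes that held the pair of matches marked below, which were the 4 chain genes, all on chromosome 20. Each line runs 5′ to 3′ on the gene's strand. The capitals mark an X-box-like match to GNNACNG and a Y-box match to CTGATTGG.
RT1-Da, chr20:4515313-4515380, plus strand: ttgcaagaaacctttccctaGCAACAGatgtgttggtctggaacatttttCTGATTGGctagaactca
RT1-Db1, chr20:4560228-4560294, minus strand: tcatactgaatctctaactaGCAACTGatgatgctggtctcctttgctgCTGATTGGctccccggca
RT1-Ba, chr20:4576961-4577028, plus strand: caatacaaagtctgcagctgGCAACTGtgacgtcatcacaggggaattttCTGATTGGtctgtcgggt
RT1-Bb, chr20:4604165-4604231, minus strand: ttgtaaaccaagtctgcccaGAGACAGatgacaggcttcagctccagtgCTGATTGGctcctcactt

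The matches lay 22 or 23 bases apart in all 4 genes. The Y match ended 45, 76, 39 and 57 bases before the start that the promoter table uses for RT1-Da, RT1-Db1, RT1-Ba and RT1-Bb. For RT1-Da and RT1-Db1 that start lay inside the annotated span of the gene rather than at its edge. On either strand CTGATTGG was found in 3.19% of 33469 rat promoters over the 250 bases before the start, and GNNACNG in 82.1%. Both in this order on the gene's strand, 15 to 35 bases apart, were found in 67 promoters, or 0.2%. The 250 bases of Cd74, on chromosome 18, held no such pair. The motifs and the spacing were chosen after these promoters were read, and a match is a description of letters, not a site shown to be bound. Ciita lies on chromosome 10, and none of the pathway genes described later that have a promoter in the table had the pair.

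In untreated rats most probe sets on the array differed between the tumour and the opposite hemisphere, and those of the members did so in a share near that of all. Over the 3 untreated times, RT1-Da was 12.4-fold, RT1-Bb (1371033_at) 12.3-fold and Cd74 8.47-fold higher in tumours than in contralateral samples. Ciita (1379381_at) was 2.60-fold higher. Of the 12 member probe sets, 7 were higher and 3 lower at an adjusted p under 0.05 (limma, Benjamini-Hochberg over 20826 probe sets), where 79.0% of all probe sets were called. The 3 lower ones were dim or flat probe sets of RT1-Ba and RT1-Bb described further on. In bulk tissue, fewer cells of a type and less RNA per cell cannot be told apart, and the macrophage and monocyte markers were also higher in tumours for 9 of 11 genes, with 0 lower. Of the T and NK cell markers 8 of 13 were higher and 1 lower. The part of these cells in the result was not tested. As a check of the tissue labels, 10 of 10 neuron markers were lower and 8 of 8 dividing-cell markers higher in untreated tumours than in untreated contralateral samples.

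**Figure D1:**
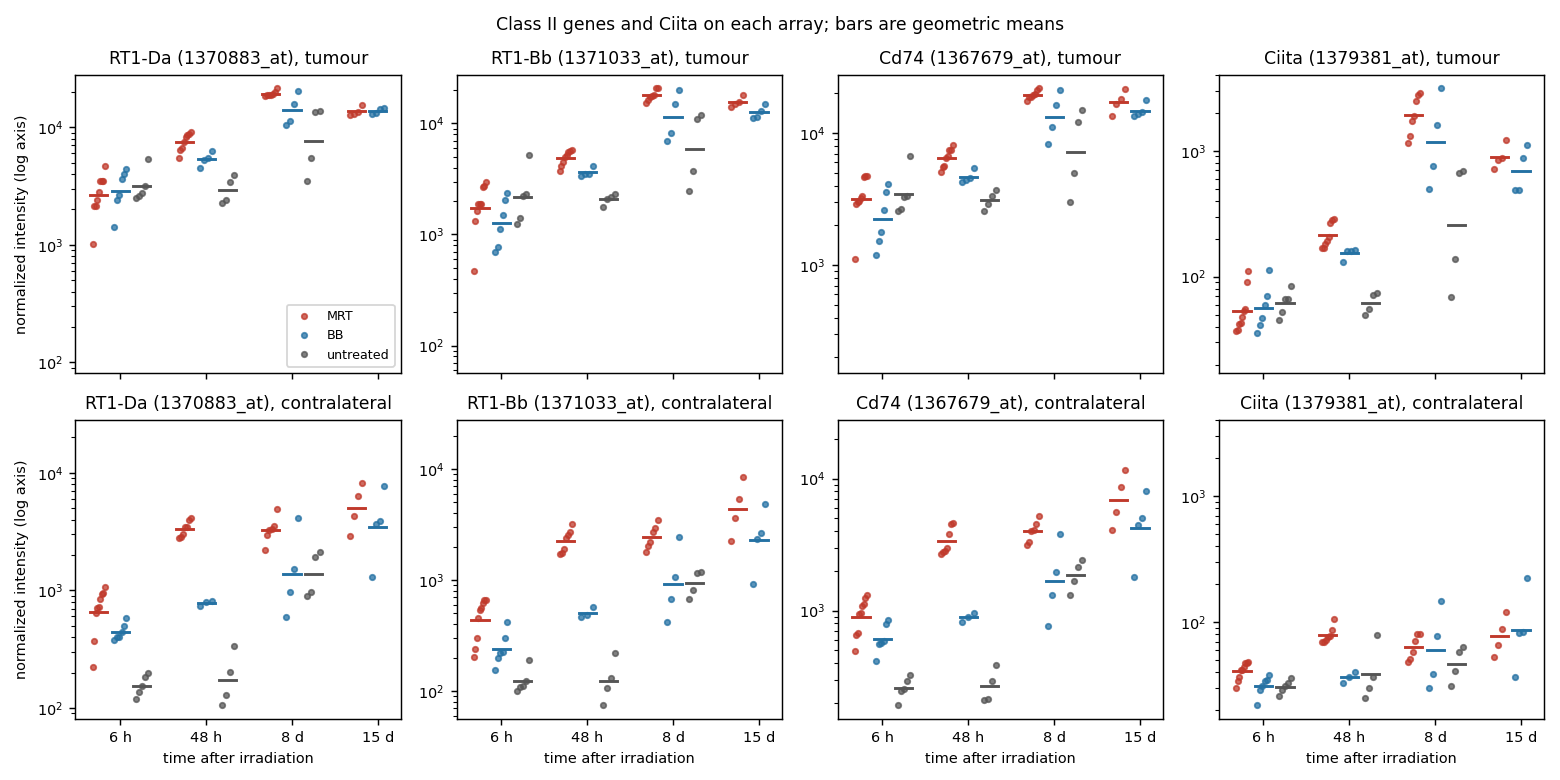
Normalized intensity, on a log axis, of RT1-Da, RT1-Bb, Cd74 and Ciita on each array against time after irradiation, with tumours above and contralateral samples below. Points are arrays of MRT (red), BB (blue) and untreated (grey) rats, and bars are geometric means; at 48 h the 7 MRT contralateral arrays of Cd74 sit between 2704 and 4628, all above the untreated ones.

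The largest log2 differences of irradiated from untreated samples among the members were those of the contralateral hemisphere 48 h after MRT. The RT1-Da gene, which encodes the alpha chain of the RT1-D molecule, had an intensity between 2798 and 4132, with a median of 3458, on the 7 MRT arrays. On the 4 untreated arrays it had 106, 130, 201 and 335. Every MRT array was thus above every untreated array, and the log2 difference was 4.26 ± 0.37 (SE, adjusted p = 2.89e-12), or 19.2-fold. The beta chain gene RT1-Db1 followed it, with a log2 difference of 3.62 ± 0.37 at 1370383_s_at and 2.00 ± 0.33 at 1370382_at.

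The chains of the RT1-B molecule and the invariant chain moved with it. RT1-Bb (1371033_at) ran between 1725 and 3181 on the MRT arrays, with a median of 2408, against 75, 107, 131 and 222 on the untreated arrays, a difference of 4.19 ± 0.37. RT1-Ba (1370822_at) rose by 3.40 ± 0.38. Cd74 ran between 2704 and 4628 after MRT, with a median of 2959, against 210, 213, 294 and 386 on untreated arrays, a log2 difference of 3.66 ± 0.30 (adjusted p = 5.9e-13), or 12.6-fold. In none of these probe sets did the groups overlap. The share of all probe sets whose groups did not overlap was not counted in any comparison. Separation of groups, here and below, therefore only describes the arrays.

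Ciita had a smaller log2 difference than these genes, though the gap between genes was not tested. At 1379381_at it ran between 69 and 106 on the MRT contralateral arrays at 48 h, with a median of 76, against 25, 30, 37 and 79 on the untreated ones. All of these values lay under the lowest array median of the series, 117, and the part of low signal in the smaller difference was not tested. The highest untreated array overlapped the MRT group, and the log2 difference was 1.03 ± 0.30 (adjusted p = 0.0103). At the other Ciita probe set, 1369214_a_at, the difference was -0.12 ± 0.16 (adjusted p = 0.561). Of the 12 member probe sets 7 were higher and 3 lower, where 31.8% of all probe sets were called. The median log2 difference was 1.52 over the members and -0.14 over all probe sets.

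The untreated contralateral array of rat 18 at 48 h stood apart, with an array median of 165, where the other 114 arrays ran from 117 to 147. It was the highest of its group in RT1-Da, RT1-Bb (1371033_at), Cd74 and Ciita (1379381_at). Without it the rise was 4.58 ± 0.40 for RT1-Da, 3.83 ± 0.33 for Cd74 and 1.38 ± 0.32 for Ciita, and 7 probe sets were called higher against 1 called lower. When the fit held just the MRT and untreated arrays of 48 h, Ciita was no longer called (adjusted p = 0.0584).

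The rise had begun by 6 h after MRT. RT1-Da ran between 222 and 1069 on the 9 MRT contralateral arrays, with a median of 717, against 120, 136, 153, 182 and 198 on the 5 untreated arrays. Cd74 ran between 491 and 1316, with a median of 960, against 193, 246, 256, 292 and 325. Neither gene's groups overlapped, and the log2 differences were 2.07 ± 0.33 and 1.80 ± 0.27. Ciita (1379381_at) had 0.40 ± 0.27 at that time, which did not pass the test (adjusted p = 0.506). In all, 5 member probe sets were higher and 0 lower, 1 each for RT1-Da, RT1-Db1, RT1-Ba, RT1-Bb and Cd74, where 6.34% of all probe sets were called. Of the macrophage and monocyte markers 6 of 11 rose and 1 fell, and of the T and NK markers 7 of 13 rose and 0 fell, with sums between 643 and 1021 after MRT and between 536 and 633 in untreated samples. Their part was not tested.

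By 8 d the untreated contralateral hemisphere had itself gained class II transcripts. Untreated RT1-Da was 903, 963, 1905 and 2123 at 8 d, against the 120 to 198 of 6 h given before, and the log2 difference was 3.14 ± 0.40 (adjusted p = 3.08e-06). Untreated Cd74 was 1319, 1683, 2157 and 2435 at 8 d, a difference of 2.84 ± 0.33. The 8 d and 6 h arrays overlapped in neither gene. The dividing-cell markers, which were high in untreated tumours, were also raised on some of these arrays. Their list means ran from 5.82 to 6.21 at 6 h and from 5.85 to 8.02 at 8 d. The part of such cells in the class II levels was not tested. Of the 12 member probe sets 6 were higher and 0 lower, where 1.48% of all probe sets were called, while Ciita (1379381_at) had 0.59 ± 0.33 (adjusted p = 0.419). In irradiated contralateral samples 6 were also higher and 0 lower at 8 d than at 6 h, after MRT (12.0% of all called), with Cd74 at 2.14 ± 0.26, and after BB (2.52% of all called), with Cd74 at 1.44 ± 0.31. The BB count was 2 without the 8 d array of rat 55.

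Against these higher untreated levels, the MRT contralateral samples at 8 d were still higher. RT1-Da ran between 2205 and 4953 on 6 MRT arrays, with a median of 3294.5, a log2 difference of 1.25 ± 0.39 (adjusted p = 0.0378) from the untreated arrays at 8 d. Cd74 ran between 3130 and 5226, with a difference of 1.11 ± 0.31 (adjusted p = 0.021). The groups did not overlap in either gene, and 5 member probe sets were higher and 0 lower, where 6.08% of all probe sets were called. Without the untreated array of rat 28, or that of rat 30, 0 were called: Cd74 then had 1.06 ± 0.35 (adjusted p = 0.0745) or 0.94 ± 0.34 (adjusted p = 0.12).

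In BB contralateral samples RT1-Da and Cd74 were higher than in untreated ones at 6 h and 48 h. At 6 h RT1-Da ran between 376 and 583 on 6 BB arrays, with a median of 422, and at 48 h it was 741, 804 and 811 on 3 BB arrays. The log2 differences from untreated arrays were 1.52 ± 0.36 at 6 h and 2.17 ± 0.46 at 48 h. Cd74 was higher by 1.24 ± 0.29 at 6 h and by 1.74 ± 0.37 at 48 h. At 6 h 3 member probe sets were higher and 0 lower, where 19.4% of all were called, a share near the members' own, and at 48 h 5 were higher and 2 lower, where 23.4% were called. With only these 2 groups in the fit at 48 h, 1 was called.

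At 8 d the BB contralateral arrays were spread around the untreated ones. RT1-Da was 597, 977, 1534 and 4123 after BB, against 903, 963, 1905 and 2123 without irradiation. The highest BB array, of rat 55, was above and the lowest, of rat 56, below the whole untreated group, and the log2 difference was 0.02, with a 95% interval from -0.83 to 0.87. No member was called, where 5.51% of all probe sets were, and 1 had an unadjusted p under 0.05.

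In contralateral samples at 48 h MRT and BB were set against each other. The class II genes were higher after MRT, with log2 differences of 2.09 ± 0.41 for RT1-Da, 2.14 ± 0.41 for RT1-Db1 (1370383_s_at), 2.15 ± 0.42 for RT1-Ba (1370822_at), 2.16 ± 0.40 for RT1-Bb (1371033_at) and 1.92 ± 0.33 for Cd74. The 7 MRT and 3 BB arrays did not overlap in any of the 5, though the share of all probe sets without overlap was not counted. In total 6 member probe sets were higher and 0 lower, where 1.56% of all probe sets were called, and leaving out any 1 BB array kept the count at 6. Ciita (1379381_at) had 1.10 ± 0.33 and did not pass (adjusted p = 0.0777).

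Calls between MRT and BB contralateral samples at the other times depended on the fit. RT1-Ba (1370822_at) was higher after MRT at 6 h, by 1.05 ± 0.32, and was the 1 member called, where 5.19% of all were. At 8 d RT1-Ba, RT1-Bb and Cd74 were higher after MRT, by 1.40 ± 0.40, 1.42 ± 0.38 and 1.26 ± 0.31, 3 probe sets where 2.20% of all were called. That count was 0 without the BB array of rat 54 or of rat 56, and 6 without that of rat 55. With array weights the counts were 6 at 6 h and 6 at 8 d. At 15 d 0 members were called, where 4.20% of all probe sets were, and 2 had an unadjusted p under 0.05; the difference in Cd74 was 0.71, with a 95% interval from 0.02 to 1.39.

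Between 8 d and 15 d the contralateral levels differed widely from rat to rat. Cd74 was 4107, 5570, 8618 and 11683 in MRT samples at 15 d, and 1801, 4461, 5065 and 7986 in BB samples at 15 d. At 15 d the dividing-cell list means ran from 6.48 to 7.14 after MRT and from 6.48 to 8.89 after BB. Their part in the spread of Cd74 was not tested. Against 8 d, 4 member probe sets were higher and 0 lower after BB, 1 each of RT1-Ba and Cd74 and both of RT1-Db1, where 0.888% of all were called. None was called after MRT, where 0.0432% of all were, and 5 members had an unadjusted p under 0.05. The BB count was 0 without any of 4 single arrays, rats 54 and 56 at 8 d and rats 59 and 60 at 15 d, 1 without rat 61 at 15 d, and 0 with only these 2 groups in the fit.

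The order of the contralateral Cd74 levels by geometric mean was MRT at 15 d (6928), BB at 15 d (4246), MRT at 8 d (3977), MRT at 48 h (3368), untreated at 8 d (1848), BB at 8 d (1662), MRT at 6 h (901), BB at 48 h (893), BB at 6 h (612), untreated at 48 h (267) and untreated at 6 h (258). Neighbours in this order overlapped in their ranges, except MRT at 48 h with untreated at 8 d and BB at 6 h with untreated at 48 h. Even at 6928 the contralateral mean was under the tumour means at 8 d and 15 d.

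**Figure D2:**
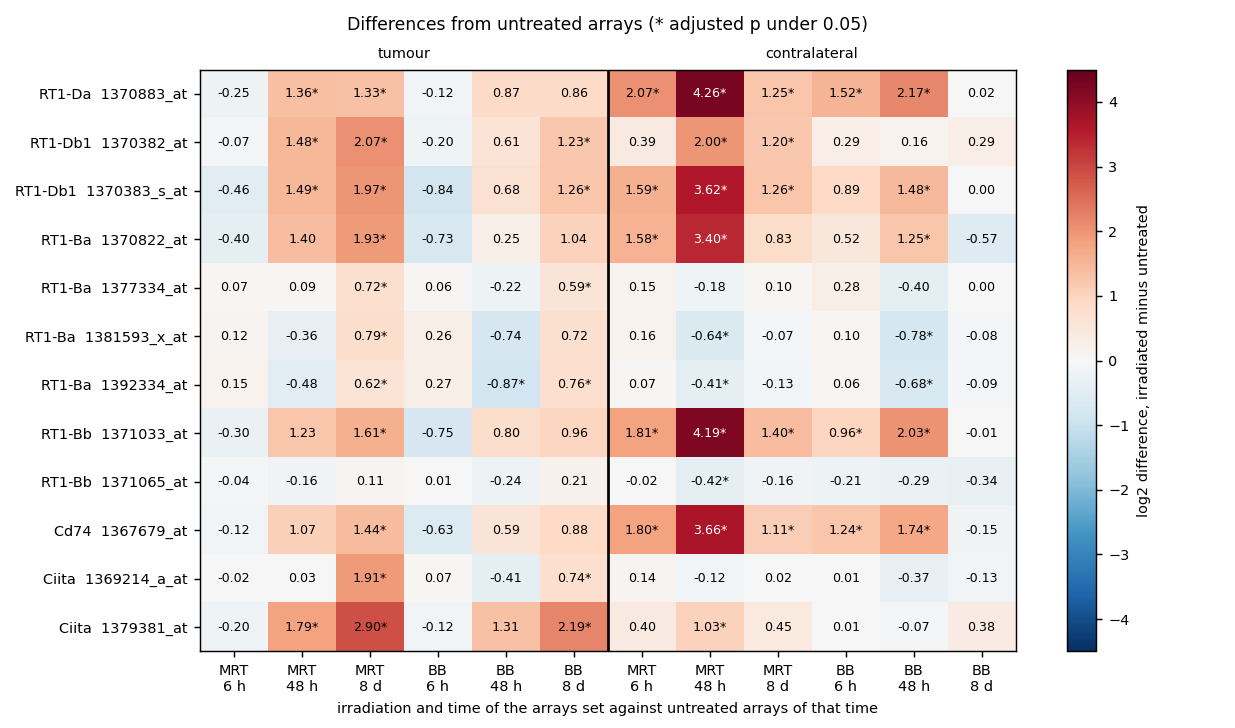
Log2 difference of irradiated from untreated arrays for the 12 member probe sets (rows) at each time, with tumours left and contralateral samples right and MRT before BB; stars mark an adjusted p under 0.05. The darkest cells are those of MRT contralateral samples at 48 h, up to 4.26 for RT1-Da, while in tumours the largest value is 2.90 for Ciita at 8 d.

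In the tumours, no member passed the test at 6 h after either irradiation. RT1-Da ran between 1013 and 4681 on the 9 MRT tumour arrays, with a median of 2834, against 2489, 2605, 2738, 3167 and 5384 on the untreated arrays. The groups overlapped, and the log2 difference was -0.25, with a 95% interval from -0.76 to 0.27. Member calls were 0 after MRT, where 1.02% of all probe sets were called, and 0 after BB, where 14.3% were; 0 and 3 members had an unadjusted p under 0.05.

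At 48 h the tumours showed a rise after MRT. RT1-Da ran between 5508 and 9053 on 8 MRT arrays, with a median of 7895.5, against 2266, 2411, 3390 and 3913 on untreated arrays. Ciita (1379381_at) ran between 168 and 286, with a median of 200, against 50, 55, 71 and 74. The groups overlapped in neither gene, and the log2 differences were 1.36 ± 0.28 (adjusted p = 0.00432) and 1.79 ± 0.40 (adjusted p = 0.00842). RT1-Db1 rose by 1.48 ± 0.37 and 1.49 ± 0.37 at its 2 probe sets.

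RT1-Ba (1370822_at), RT1-Bb (1371033_at) and Cd74 lay just outside the threshold at 48 h, with log2 differences of 1.40 ± 0.40, 1.23 ± 0.35 and 1.07 ± 0.31 and adjusted p of 0.0522, 0.0513 and 0.0549, and their groups did not overlap either. The count was therefore 4 of 12 member probe sets higher and 0 lower, where 1.67% of all were called. It was 1 without the untreated array of rat 16, 2 without that of rat 17, and 7 with array weights, with 1 probe set per gene, or with only these 2 groups in the fit. The BB tumours had 0.87 ± 0.32 for RT1-Da and 1.31 ± 0.46 for Ciita (1379381_at), which did not pass (adjusted p = 0.109 and 0.09), and 0 members were higher and 1 lower, where 2.92% of all were called. The lower one was RT1-Ba 1392334_at, by -0.87 ± 0.24, and the count was 0 without any 1 of 7 single arrays of these groups. Among them was the BB array of rat 53, whose Gapdh 3′ to 5′ log2 ratio of 2.35 was the highest of the series.

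At 8 d after MRT all 6 genes were higher in the tumours. Ciita (1379381_at) ran between 1142 and 2862 on the 7 MRT arrays, with a median of 1904, against 69, 139, 660 and 690 on the untreated arrays, a log2 difference of 2.90 ± 0.41 (adjusted p = 1.46e-07) or 7.47-fold. The second Ciita probe set, 1369214_a_at, ran between 253 and 585 after MRT, against 72, 81, 146 and 154, a difference of 1.91 ± 0.23. Neither probe set's groups overlapped.

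The class II chains rose with Ciita in the tumours at 8 d. The log2 differences were 1.33 ± 0.29 for RT1-Da, 2.07 ± 0.38 and 1.97 ± 0.38 for RT1-Db1, 1.93 ± 0.41 for RT1-Ba (1370822_at) and 1.61 ± 0.36 for RT1-Bb (1371033_at). Cd74 ran between 17546 and 21908 on the MRT arrays, with a median of 19475, against 2995, 4983, 12184 and 15003 on the untreated ones, a difference of 1.44 ± 0.31. All MRT arrays were above all untreated arrays in these 6 probe sets, and in all 11 of 12 were higher and 0 lower, where 42.1% of all probe sets were called. The MRT values of Cd74 and RT1-Da reached 21908 and 21523, where the highest value of any probe set on any array was 27837.

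The untreated tumours at 8 d were themselves split. Rats 28 and 29 had Cd74 at 12184 and 15003 and Ciita (1379381_at) at 660 and 690, while rats 27 and 30 had Cd74 at 2995 and 4983 and Ciita at 69 and 139. Leaving out 1 of the 4 gave differences for Cd74 after MRT between 1.01 ± 0.32, without rat 27, and 1.79 ± 0.33, without rat 29. For Ciita (1379381_at) they lay between 2.27 ± 0.40, without rat 27, and 3.38 ± 0.42, without rat 29; the count of 11 was kept without any 1 of the 4. Between 6 h and 8 d the untreated tumours gained 7 member calls and 0 lower, where 26.1% of all were called, with Cd74 at 1.06 ± 0.34 and Ciita (1379381_at) at 2.07 ± 0.43, or 2.70 ± 0.42 without rat 27. That count was 4 without rat 28 or rat 29, and 3 with only these 2 groups in the fit.

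After BB the tumours at 8 d had a wide spread. Ciita (1379381_at) was 501, 754, 1594 and 3143, against the untreated 69 to 690, a log2 difference of 2.19 ± 0.46 (adjusted p = 0.000859), or 1.56 ± 0.44 without the untreated array of rat 27 (adjusted p = 0.0185). RT1-Db1 was higher by 1.23 ± 0.43 and 1.26 ± 0.43, while RT1-Da, with 0.86 ± 0.32, and Cd74, with 0.88 ± 0.35, did not pass (adjusted p = 0.052 and 0.0664). In all 6 probe sets were higher and 0 lower, where 20.1% of all were called. The count was 1 without the BB array of rat 55 or the untreated array of rat 27, 2 without BB rat 54 or untreated rat 30, 10 without untreated rat 29, 11 without BB rat 57, and 1 with only these 2 groups in the fit.

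Rat 55 had the highest class II levels of the BB rats at 8 d in both of its samples. Its Cd74 was 21155 in the tumour and 3809 in the contralateral sample, while the other BB rats at 8 d had 8248, 11163 and 16222 in tumours and 769, 1321 and 1974 in contralateral samples.

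Few member probe sets passed the test between MRT and BB tumours, which does not show that the treatments act alike. The count was 0 at 6 h, where 12.4% of all probe sets were called and 0 members had an unadjusted p under 0.05. At 48 h it was 0, where 0% of all were, with 910 of 20826 probe sets and 3 members at an unadjusted p under 0.05. At 8 d it was 1 higher, where 1.32% were, and at 15 d 0, where 4.52% were and 1 member had an unadjusted p under 0.05. The 1 call was Ciita 1369214_a_at at 8 d, higher after MRT by 1.17 ± 0.23 (adjusted p = 0.0127); it was lost without the BB array of rat 56 or of rat 57, or with only these 2 groups in the fit. For Cd74 the MRT minus BB difference had a 95% interval from -0.14 to 1.09 at 48 h, from -0.07 to 1.18 at 8 d and from -0.49 to 0.93 at 15 d.

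All 6 genes were higher in irradiated tumours at 8 d than at 6 h. In MRT tumours Ciita (1379381_at) rose by 5.17 ± 0.33, RT1-Db1 (1370383_s_at) by 3.83 ± 0.30 and Cd74 by 2.62 ± 0.25, and 10 member probe sets were higher and 0 lower, where 29.5% of all were called. In BB tumours the same probe sets rose by 4.38 ± 0.42, 3.49 ± 0.39 and 2.57 ± 0.32, and 8 were higher and 0 lower, where 13.0% of all were called.

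Between 8 d and 15 d Ciita fell in MRT tumours. At 1379381_at it was 720, 844, 882 and 1211 at 15 d, against 1142 to 2862 at 8 d, a log2 difference of -1.10 ± 0.41 (adjusted p = 0.0386). At 1369214_a_at it was 168, 177, 189 and 191, against 253 to 585, a difference of -1.15 ± 0.23 (adjusted p = 0.000353), with no overlap. These were the 2 lower calls, with 0 higher, where 26.5% of all probe sets were called, and the count was 1 without rat 40, rat 41 or rat 43, or after each array was shifted to a common median, and 4 with only these 2 groups in the fit. Cd74 was 13577, 16652, 18104 and 21608 at 15 d, with a difference of -0.18 and a 95% interval from -0.81 to 0.45. RT1-Da was 12798, 13030, 13546 and 15474 at 15 d, all under its lowest value at 8 d, 18378, with a difference of -0.50 ± 0.29 that did not pass (adjusted p = 0.185). In BB tumours 0 members were called between 15 d and 8 d, where 2.68% of all were, with 1 at an unadjusted p under 0.05.

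The order of the tumour Cd74 levels by geometric mean was MRT at 8 d (19579), MRT at 15 d (17245), BB at 15 d (14782), BB at 8 d (13332), untreated at 8 d (7227), MRT at 48 h (6481), BB at 48 h (4649), untreated at 6 h (3469), MRT at 6 h (3187), untreated at 48 h (3093) and BB at 6 h (2242). Every neighbouring pair overlapped in its range. Ciita (1379381_at) had another order at the top, with MRT at 8 d (1920), BB at 8 d (1173), MRT at 15 d (898) and BB at 15 d (692).

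The response differed between the tissues. The difference between tissues was the log2 change in the tumour minus the log2 change in the contralateral sample. At 48 h after MRT it was -2.90 ± 0.48 for RT1-Da, -2.96 ± 0.52 for RT1-Bb (1371033_at) and -2.59 ± 0.44 for Cd74. The contralateral rise was thus the larger one as a ratio, from a lower untreated level. In intensity it was not: the geometric mean of RT1-Da was 2918 untreated and 7510 after MRT in tumours, and 175 and 3351 in contralateral samples. For Cd74 these means were 3093 and 6481 in tumours, and 267 and 3368 in contralateral samples. At 6 h it was -2.32 ± 0.43 for RT1-Da and -1.92 ± 0.40 for Cd74. At each of these times 5 member probe sets had a smaller log2 change in the tumour and 0 a larger one. Of all probe sets 0.629% were called at 6 h and 1.73% at 48 h.

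At 8 d the Ciita change was the larger one in the tumour. In contralateral samples Ciita (1379381_at) then ran from 31 to 63 untreated and from 48 to 81 after MRT, under the lowest array median of the series, 117. The difference between tissues in the MRT effect was then 2.45 ± 0.52 at 1379381_at and 1.89 ± 0.29 at 1369214_a_at, while Cd74 had 0.33 ± 0.45 (adjusted p = 0.624). The 5 member calls at 8 d, all positive, were these 2 and 3 probe sets of RT1-Ba with low dynamic range, where 31.6% of all probe sets were called. For BB the difference between tissues gave 2 negative calls at 6 h, RT1-Da with -1.64 ± 0.46 and Cd74 with -1.87 ± 0.43, where 1.49% of all were called. It gave 0 calls at 48 h, where 6.33% of all were and 4 members had an unadjusted p under 0.05, and 3 positive calls at 8 d, where 6.93% were. With the rat as a replicate block, which uses the 55 rats that gave both tissues, the 2 calls at 6 h became 4.

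Probe sets of the same gene disagreed. The RT1-Bb probe set 1371065_at stayed between 11 and 26 on all 115 arrays, at the 3.03 percentile of mean level, while 1371033_at ran from 75 to 20803. RT1-Ba 1370822_at ran from 76 to 13387, while 1377334_at stayed between 27 and 129, 1381593_x_at between 132 and 734 and 1392334_at between 146 and 704. In MRT contralateral samples at 48 h, where 1370822_at rose by 3.40, 1381593_x_at had -0.64 ± 0.14 and 1392334_at had -0.41 ± 0.13, both called lower. Without the untreated array of rat 18, 1392334_at was no longer called (adjusted p = 0.492) and 1381593_x_at had -0.41 ± 0.13 (adjusted p = 0.0344).

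The 2 Ciita probe sets also disagreed. In MRT tumours at 48 h 1379381_at rose by 1.79, while 1369214_a_at had 0.03 ± 0.23 (adjusted p = 0.974), and at 8 d both rose. In the contralateral hemisphere 1369214_a_at stayed between 58 and 187 on all 56 arrays. The RT1-Db1 probe sets agreed in direction wherever both were called.

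**Figure D3:**
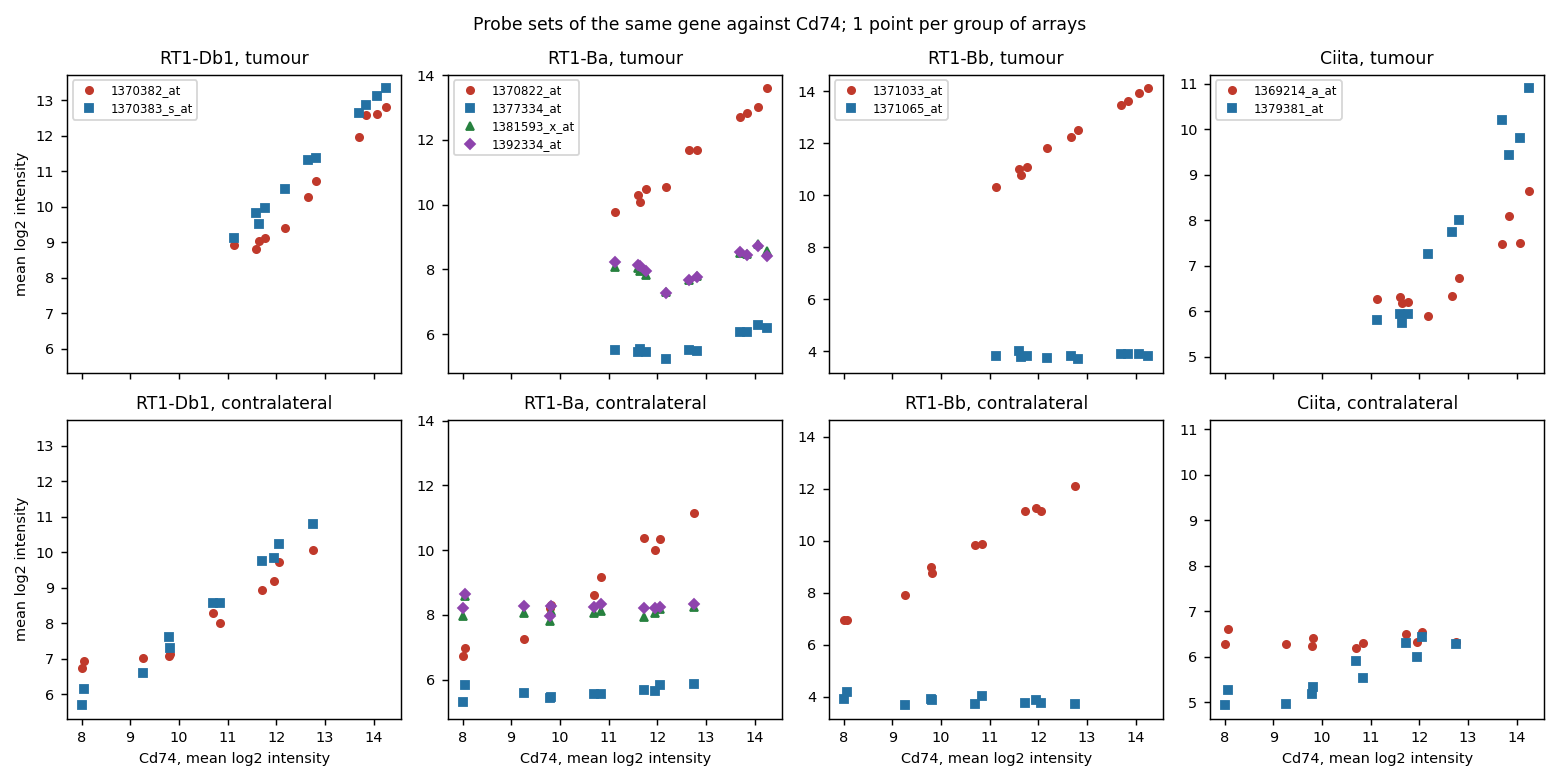
Mean log2 intensity of each probe set of RT1-Db1, RT1-Ba, RT1-Bb and Ciita against that of Cd74, with 1 point for each of the 11 tumour groups (above) and 11 contralateral groups (below). RT1-Ba 1370822_at and RT1-Bb 1371033_at rise with Cd74 in both tissues, RT1-Bb 1371065_at is flat, and Ciita 1369214_a_at rises in tumours and is flat in contralateral samples.

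Likeness to Cd74 was measured as Pearson's r over the 11 tumour group means and over the 11 contralateral group means, then averaged; groups share rats and times, so these values describe and test nothing. It was 0.997 for RT1-Bb 1371033_at, 0.994 for RT1-Db1 1370383_s_at, 0.989 for RT1-Da, 0.987 for RT1-Ba 1370822_at, 0.966 for RT1-Db1 1370382_at and 0.940 for Ciita 1379381_at. The other 5 member probe sets had 0.681 or less. The 8 other genes most like Cd74 were Fyb1, Ifi30, Lcp1, Clec10a, Rac2, Ptpn6, Cybb and Hcst, with means from 0.951 to 0.961. Ifi30 encodes the thiol reductase that opens disulfide bonds in engulfed proteins, Lcp1 an actin bundler of white blood cells, and Cybb a subunit of the phagocyte NADPH oxidase.

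Genes that prepare and load peptides for class II were then followed in the contralateral hemisphere; the difference between times was not tested. At 6 h after MRT 0 of the 8 measured loading genes rose and 2 fell, RT1-DMb, a chain of the peptide exchanger DM, by 0.58 on the log2 scale and the protease gene Ctss by 0.33. At 48 h 6 rose and 1 fell: RT1-DMb had 1.37 ± 0.18, Ifi30 had 1.58 ± 0.20, and Ctss had -0.58 ± 0.11. RT1-DMb ran between 214 and 344 on MRT arrays at 6 h, against 325 to 514 on untreated ones, and between 953 and 1319 at 48 h, against 326 to 717. In tumours 7 of the 8 rose and 0 fell at 8 d after MRT, with RT1-DMa at 1.70 ± 0.28. Of all probe sets 6.34% and 31.8% were called at 6 h and 48 h in the hemisphere, and 42.1% in tumours at 8 d.

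Calls among the factors that bind class II promoters differed between comparisons. Of the 7 genes Rfx5, Rfxap, Rfxank, Nfya, Nfyb, Nfyc and Creb1, 0 passed in either direction in MRT contralateral samples at 6 h, 48 h or 8 d. Of all probe sets 6.34%, 31.8% and 6.08% were called at these times. Of these 7 genes, 2 fell and 0 rose in MRT tumours at 8 d, where 42.1% of all probe sets were called. Rfxap fell by 0.45 and Nfyc by 0.26 on the log2 scale. In BB contralateral samples at 6 h 2 rose and 1 fell, where 19.4% of all probe sets were called.

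Of the genes of interferon gamma signalling, Ifng, which encodes the cytokine, did not pass the test in the contralateral hemisphere at 6 h or 48 h after MRT. At 6 h after MRT 5 of 9 rose and 0 fell, with the guanylate-binding protein gene Gbp2 at 5.65 ± 0.32 and the transcription factor gene Irf1 at 2.94 ± 0.27. Gbp2 ran between 1490 and 3882 on MRT arrays, against 41 to 72 on untreated ones. Ifng stayed between 10 and 13 after MRT, against 10 to 12 in untreated samples, near the lowest value on any array, 7, with a log2 difference of -0.07 ± 0.07 (adjusted p = 0.694). All 9 rose in MRT tumours at 8 d, with Ifng between 20 and 146, against 12 to 20 in untreated tumours, a log2 difference of 1.76 ± 0.33. In BB tumours at 8 d 0 of 9 rose and 0 fell. Of all probe sets 6.34% were called in the hemisphere at 6 h after MRT. In tumours at 8 d 42.1% were called after MRT and 20.1% after BB.

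Class I genes, which present peptides from inside the cell, rose early in the hemisphere. At 6 h after MRT 8 of 8 were higher, with the immunoproteasome gene Psmb9 at 2.62 ± 0.27 and the peptide transporter gene Tap1 at 2.09 ± 0.22, and after BB 8 of 8 were higher as well. In tumours 8 of 8 were higher at 8 d after MRT, with the class I activator Nlrc5 at 2.25 ± 0.34, and 3 of 8 after BB. Of all probe sets 6.34% were called at 6 h after MRT and 19.4% after BB in the hemisphere. In tumours at 8 d 42.1% were called after MRT and 20.1% after BB.

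Products of the costimulatory genes give T cells their further signals. In MRT contralateral samples at 6 h, where 6.34% of all probe sets were called, 3 of 8 costimulation genes rose and 0 fell. Among them were the adhesion gene Icam1, at 3.65 ± 0.24, and Cd40, at 1.97 ± 0.16. At 48 h 2 rose and 2 fell, with Cd86, a ligand of CD28, at 0.77 ± 0.19, where 31.8% of all probe sets were called. The list means at 48 h ran from 5.53 to 6.46 on untreated arrays and from 5.75 to 5.93 after MRT. No count without single untreated arrays is given for this list. In MRT tumours at 8 d, where 42.1% of all probe sets were called, 8 of 8 rose, with Cd40 at 2.32 ± 0.32 and Cd86 at 2.26 ± 0.34. At 15 d against 8 d, where 26.5% of all were called, 4 fell and 0 rose, Cd86 by 1.55 on the log2 scale. Marchf1, a ligase that marks class II for degradation, and Cd83, which protects class II from it, rose in MRT tumours at 8 d, by 2.49 ± 0.39 and 2.29 ± 0.31.

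More markers passed the test in some cell lists than in others. In MRT contralateral samples at 48 h 9 of 11 macrophage and monocyte markers rose and 0 fell, with summed intensities between 14048 and 16149, against 2276 to 3640 on untreated arrays. Of 5 dendritic markers 3 rose and 0 fell, of 8 microglial markers 1 rose and 2 fell, and of 13 T and NK markers 0 rose and 1 fell, with sums between 641 and 828 after MRT and between 564 and 1153 in untreated samples. Of 7 astrocyte markers 5 rose and 0 fell, with list means from 9.85 to 11.38 on untreated arrays and from 11.61 to 11.85 after MRT. No count without single untreated arrays, such as that of rat 18 at 48 h, is given for the marker or pathway lists. In untreated contralateral samples at 8 d against 6 h 4 of 11 macrophage markers rose, Gpnmb, Cd14, Fcgr2b and Cd68, while 0 of 13 T and NK and 0 of 8 microglial markers passed. The microglial list fell at 6 h after MRT for 6 of 8 genes, among them P2ry12, a receptor of resting microglia, at -3.29 ± 0.34. Of all probe sets 31.8% were called at 48 h after MRT, 1.48% between the untreated times and 6.34% at 6 h after MRT. The part of the listed cell types in the class II rise was not tested.

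In MRT tumours at 8 d 11 of 11 macrophage, 5 of 5 dendritic, 13 of 13 T and NK and 4 of 5 B cell markers rose. Neuron markers rose for 8 of 10, while 8 of 8 dividing-cell markers fell. In that comparison 42.1% of all probe sets were called. The summed macrophage intensities lay between 44729 and 67290 in MRT tumours, against 11684 to 30505 in untreated tumours, and the T and NK sums between 7006 and 29170, against 1007 to 4238. At 15 d against 8 d in MRT tumours, where Ciita fell, 4 of 5 dendritic and 3 of 11 macrophage markers fell. None of the 13 T and NK markers passed. Of all probe sets 26.5% were called, a share near that of the macrophage markers. The part of these cells in the Ciita values was not tested.

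**Figure D4:**
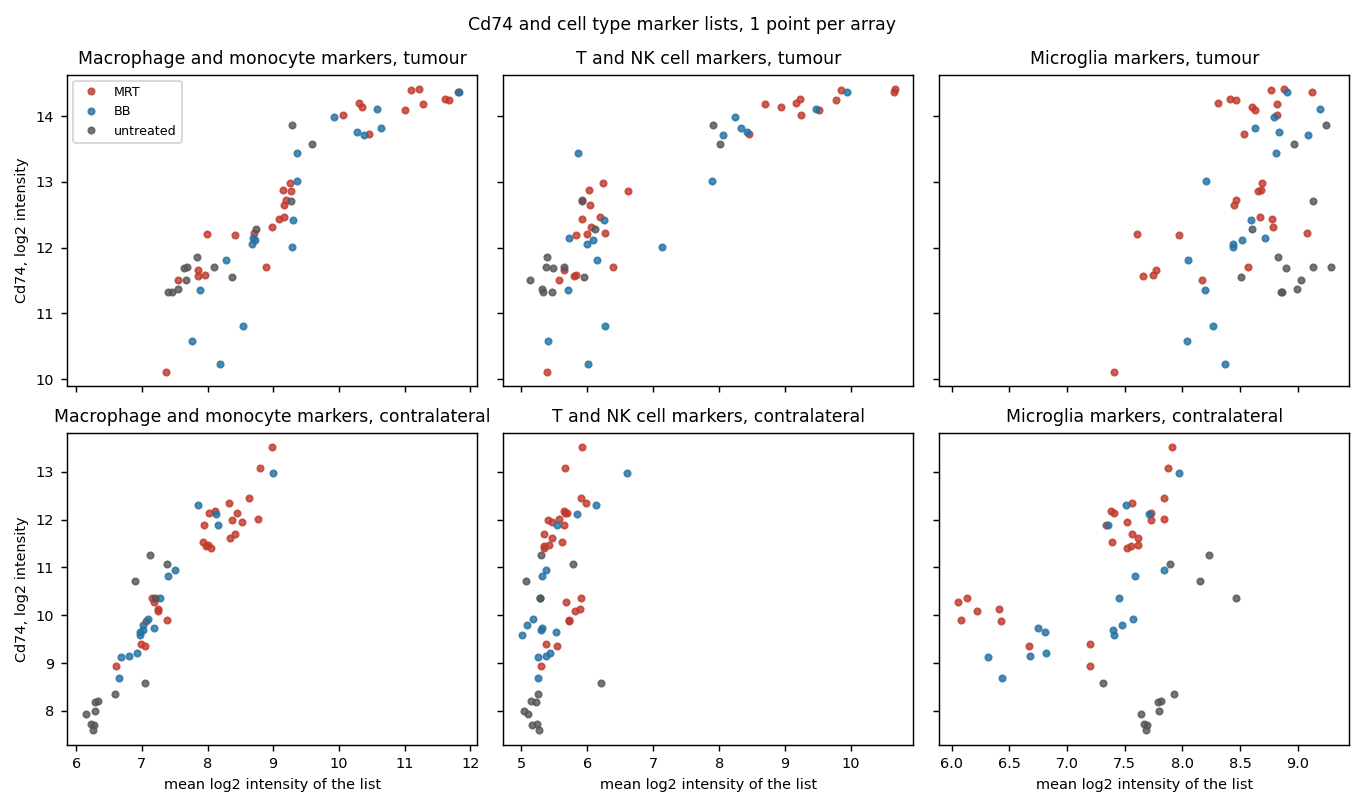
Log2 intensity of Cd74 on each array against the mean log2 intensity of the macrophage and monocyte, T and NK, and microglia marker lists, with tumours above and contralateral samples below; MRT is red, BB blue and untreated grey. In contralateral samples Cd74 runs from 193 to 11683 in intensity. The mean log2 level there lies between 6.14 and 8.99 for the macrophage list, between 6.05 and 8.47 for the microglia list, and between 5.01 and 6.61 for the T and NK list.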

How the data were processed

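RNA from 59 tumour and 56 contralateral samples was measured on Affymetrix rat arrays; per the labels' protocols it was isolated with the mirVana kit and 200 ng was labelled with the 3′ IVT Express kit. The deposited values are linear intensities that the authors had normalized, all whole numbers, the lowest 7 and the highest 27837; per the submitters' processing notes, Affymetrix Expression Console was used with MAS5 and RMA, and with RMA alone for BB arrays. Here log2 was taken, since the design had assumed log2 values. Of 31099 probe sets, 57 controls, 436 with several symbols and 9780 with none were left out. Groups came from sample titles. A group-means model was fitted in limma 3.58.1 (eBayes with trend) per tissue, or over all 115 arrays between tissues, with Benjamini-Hochberg adjustment over 20826 probe sets in each of 37 comparisons, and tested on simulated data. Arrays are separate rats, and their number limits precision. Tumour and contralateral samples of a rat are paired by animal: their deviations from group means correlated by over 0.1 in 41 of 55 rats (median 0.202). Named genes are every member probe set, at most 3 called genes of each pathway list by size of t, and the 8 genes most like Cd74; pathway genes use their brightest probe set. Members, lists and motifs were chosen with earlier results of these data known. Values named outside that rule (RT1-DMb, Ctss, Ifng, P2ry12 and others) were chosen after they were seen. The alternatives were quantile normalization, a common median, 1 probe set per gene, a filter on the dimmest 30%, array weights, no intensity trend, only the groups compared, single arrays left out, and the rat as a replicate block.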

Additional observations from a re-analysis of the deposited data

Results flagged for a closer look

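Over 252 groups of 4 to 10 arrays, 21 member values lay far from the rest of their group, where chance alone gives about 1 in 20. In MRT tumours at 6 h rat 6 was far below the other arrays in 4 genes, with Cd74 at 1106, RT1-Ba (1370822_at) at 302, RT1-Bb (1371033_at) at 474 and RT1-Db1 (1370383_s_at) at 220. In untreated tumours at 6 h rat 5 was high in Cd74 at 6673. The untreated contralateral array of rat 18 at 48 h was high in RT1-Ba 1377334_at at 102, RT1-Ba 1381593_x_at at 632 and RT1-Bb 1371065_at at 26.

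Other single arrays stood apart in 1 probe set each or in probe sets of RT1-Ba with low dynamic range. Ciita (1379381_at) was low at 130 in the BB tumour of rat 50 at 48 h, and RT1-Ba (1370822_at) was far from the group at 8867 in the BB tumour of rat 61 at 15 d. RT1-Db1 (1370383_s_at) was far from the group at 1443 in the MRT contralateral sample of rat 33 at 8 d and at 78 in the untreated contralateral sample of rat 2 at 6 h. For RT1-Ba 1377334_at the MRT tumour of rat 19 at 48 h had 27. For RT1-Ba 1392334_at the MRT contralateral sample of rat 20 at 48 h had 394 and the untreated one of rat 29 at 8 d had 297. For RT1-Ba 1381593_x_at the tumour values were 190 (MRT, 6 h, rat 8), 535 (MRT, 15 d, rat 42), 132 (BB, 48 h, rat 51) and 597 (BB, 8 d, rat 55), and the contralateral values were 202 (MRT, 6 h, rat 9) and 245 (untreated, 8 d, rat 29).

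In 20 member values the change in the tumour differed from that in the contralateral sample by the test of the difference itself (limma over all arrays). For MRT at 6 h the tumour change minus the contralateral change was -2.32 for RT1-Da, -2.05 for RT1-Db1 (1370383_s_at), -1.98 for RT1-Ba (1370822_at), -2.12 for RT1-Bb (1371033_at) and -1.92 for Cd74. At 48 h the same probe sets had -2.90, -2.13, -2.00, -2.96 and -2.59. At 8 d it was 1.89 and 2.45 for the Ciita probe sets 1369214_a_at and 1379381_at, and 0.62, 0.86 and 0.75 for RT1-Ba 1377334_at, 1381593_x_at and 1392334_at. For BB it was -1.64 for RT1-Da and -1.87 for Cd74 at 6 h, and at 8 d 1.81 for Ciita 1379381_at, 0.85 for RT1-Ba 1392334_at and 0.54 for RT1-Bb 1371065_at.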

How the results depend on the processing

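Of 444 member values, 142 passed the test, and 90 of these passed under every alternative run; none changed direction while called. Counts of members called changed as follows, and the cause was not tested except that a fit of only the groups compared uses fewer arrays. With only the groups compared, BB against untreated gave 6 at 6 h and 1 at 48 h in contralateral samples and 5 at 48 h and 1 at 8 d in tumours. MRT against untreated gave 6 in contralateral samples and 7 in tumours, both at 48 h. MRT against BB gave 0 in contralateral samples at 6 h and 8 d and 0 in tumours at 8 d. The 15 d against 8 d counts were 0 in BB contralateral samples and 4 in MRT tumours, and untreated tumours at 8 d against 6 h gave 3. With a common median, BB against untreated contralateral samples at 6 h gave 5, and MRT tumours at 15 d against 8 d gave 1. With quantile normalization, BB against untreated gave 1 in contralateral samples at 8 d and 0 in tumours at 48 h. With array weights, BB against untreated gave 1 in contralateral samples at 8 d and 4 in tumours at 48 h. MRT against BB then gave 6, 6 and 2 in contralateral samples at 6 h, 8 d and 15 d and 1 in tumours at 15 d, and MRT against untreated tumours at 48 h gave 7. Contralateral samples at 15 d against 8 d gave 3 for MRT and 7 for BB, and the tissue difference in the BB effect gave 1 at 48 h and 10 at 8 d. With 1 probe set per gene, MRT against untreated tumours at 48 h gave 7. With the rat as a replicate block, which pairs the tissues, the tissue difference in the BB effect at 6 h gave 4. Of 84 member values in that fit 82 stayed on the same side of the threshold, called or not, and 2 gained a call.

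Single arrays were left out only of groups of up to 5 arrays. No MRT array of 6 h, 48 h or 8 d and no BB array of 6 h was therefore left out. The ranges of member calls were as follows. For BB against untreated they were 2 to 3, 5 to 9 and 0 to 1 in contralateral samples at 6 h, 48 h and 8 d, and 0 to 1 and 1 to 11 in tumours at 48 h and 8 d. The 8 d count without untreated rat 39 was 1 in BB contralateral samples. The BB tumour count at 48 h was 0 without any 1 of 7 of the 8 arrays. For MRT against untreated they were 8 to 11 and 0 to 5 in contralateral samples at 48 h and 8 d, and 1 to 4 in tumours at 48 h. For MRT against BB they were 0 to 6 in contralateral samples and 0 to 1 in tumours, both at 8 d. For 15 d against 8 d they were 0 to 6 and 0 to 1 in BB contralateral samples and tumours and 1 to 2 in MRT tumours. For 8 d against 6 h they were 2 to 7 in BB contralateral samples, 8 to 9 in BB tumours, 5 to 6 in untreated contralateral samples and 4 to 8 in untreated tumours. BB tumours at 15 d against 8 d reached 1 without rat 55. Values are rounded intensities, so probe sets near the lowest values, such as RT1-Bb 1371065_at, have coarse steps.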
